A study of Solanum lycopersicum with 32 samples.

Results

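In leaves of wild-type tomato cv. M82 moved to 45 °C, 7002 genomic regions had peaks of RNA polymerase II (RNAPII) after 1 h and none before heat or after 6 h. They were found among 79569 merged RNAPII regions, of which they made up 8.8%. The regions were chosen by their RNAPII peaks. To define them, the peaks of the 6 RNAPII lists on chromosomes 1 to 12 were merged where they overlapped or touched. A merged region of 150 bp or more was kept when a peak of both 1 h lists and no peak of the 0 h and 6 h lists overlapped it by 1 bp. Another 32913 regions carried RNAPII in both lists of all 3 times, 1016 appeared at 1 h and were still present at 6 h (here called gained and held), 2038 were present only at 0 h and 1182 only at 6 h.

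The data came from chromatin immunoprecipitation followed by sequencing (ChIP-seq) of RNAPII, of histone H3 trimethylated on lysine 4 (H3K4me3), and of histone H3 acetylated on lysine 9, 18 or 27 (H3K9ac, H3K18ac and H3K27ac). The plants, 4 weeks of age and raised under 16 h of light at 24 °C, were sampled after 0, 1 or 6 h at 45 °C, so the 0 h leaves are the only unheated ones. No unheated leaves of the later sampling times are in the design, so heat and time of day cannot be told apart. Each target and time had 2 libraries labelled as biological replicates, which gave 30 peak lists in 15 groups. The depth of a library was taken as its lowest background, in fragments covering a base. For RNAPII it was 9.53 and 7.98 in the unheated libraries, 7.33 and 7.05 after 1 h and 6.94 and 5.61 after 6 h, and over all lists it ran from 3.71 to 13.96. Libraries of the same time differed by less than the sampling noise in all 15 pairs, with a mean chi-square per matched peak of 0.295 to 0.705 against 1.04 to 10.7 for the 60 pairs from different times. Each pair was therefore counted as 1 sample, and both libraries are given side by side without an SD. The spread between plants is not known from these values.

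RNAPII is the enzyme that transcribes protein-coding genes, and a ChIP-seq peak marks where it is engaged on or held near DNA. In plants, as in other eukaryotes, H3K4me3 is concentrated at the start of transcribed genes, while acetylation of H3 on lysines 9, 18 and 27 marks open and active chromatin at promoters and, in part, at regulatory sites away from genes. A shift to high temperature makes plant cells stop transcribing many genes and switch on those for heat shock proteins and other protective factors within a short time. No gene annotation of the M82 assembly was used here, so the regions are named by position, no gene is assigned to them, and the labelled tissue was not checked against marker genes.

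The 1 h-only regions were mostly narrow and weak. Since the regions were selected on RNAPII peaks, these values describe them and test nothing. The median width was 496 bp, with 80% of regions between 300 and 929 bp, and 569 regions exceeded 1000 bp. Together they covered 4.15 Mb. Regions present at all times had a median width of 1828 bp, and those gained and held 801 bp. The fold enrichment of a peak is the pileup at its summit plus 1 over the local background plus 1. Its median at 1 h was 2.33 in library 1 and 2.34 in library 2, which lay at percentiles 28.1 and 28.2 of their lists and rested on 26 and 25 fragments. The same medians were 3.33 and 3.30 at regions gained and held and 6.44 and 6.52 at regions of all times. The values of both libraries differed by a median of 0.20 on the log2 scale, and 6071 regions (86.7%) had a q-value of at most 0.05 in both lists. A single peak in each list made up 6434 of the regions (91.9%).

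**Figure D1:**
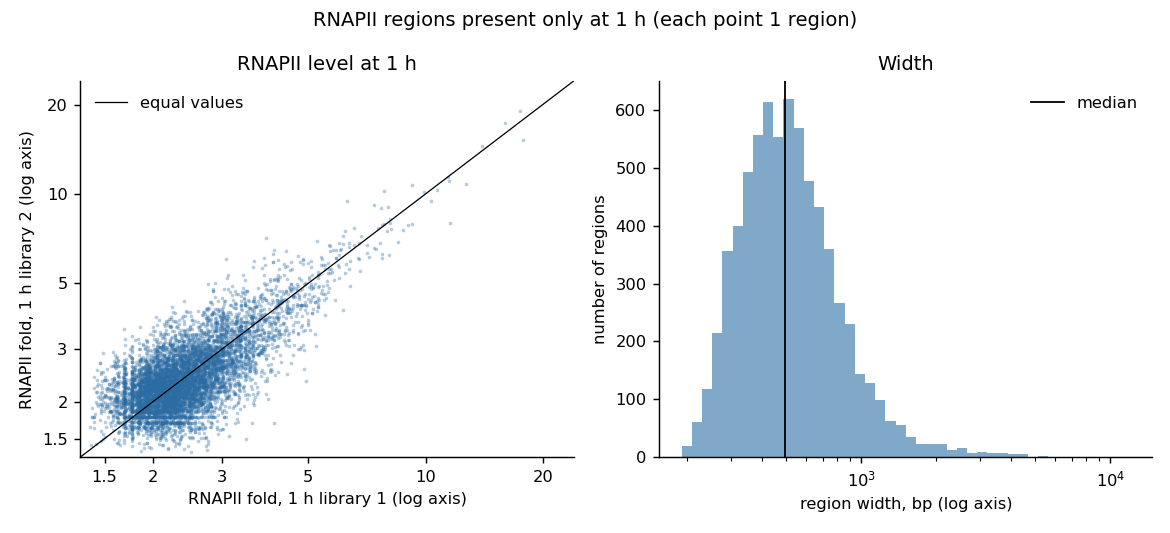
Left, RNAPII fold enrichment of each of the 7002 regions in the 2 libraries of 1 h, both on log axes, with a line of equal values. Right, number of regions by width in bp on a log axis, with the median of 496 bp as a line. In library 1, 80% of the regions lie between 1.82-fold and 3.45-fold, and 92 exceed 5-fold in both libraries.

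A missing peak at 0 h or 6 h is not a level of zero, so the margin to the call level was measured. The 1 h pileup, scaled to the depth of each other library, was set against the pileup that this library needed for a call at p of 0.05. These are the values the rule used, so they describe the margin only. The median scaled pileup was 1.63 to 1.69 times the call level of the 0 h libraries and 1.53 to 1.59 times that of the 6 h libraries. It exceeded the call level by more than 1.5 times at 63.5% to 70.2% of the regions for 0 h, and at 52.1% to 60.6% for 6 h. For the remaining regions the lists allow a 1 h level less than 1.5 times the level at another time. The margin considers the height of a peak only. No RNAPII peak was narrower than 186 bp, so a missing peak sets no strict limit at the other regions either. Peaks of all times were called against the input of 0 h, so a background that changed with heat cannot be told apart from RNAPII. Just outside the rule, 2856 regions had peaks in both 1 h lists and in 1 of the 4 other lists. Their median 1 h fold was 2.61 and 2.59, and the fold in the other list was 1.96. A further 10127 regions had a peak in only 1 of the 1 h lists and in no other list, with a median fold of 1.95 or 1.97 and a width of 255 bp. The length limit removed no region, since the narrowest RNAPII peaks measured 186 to 196 bp. The 3 shortest 1 h-only regions were chr4:51591260-51591455 and chr5:63352421-63352616, both 196 bp wide, and chr5:60523663-60523859 of 197 bp. Their RNAPII fold at 1 h lay between 1.87 and 2.44 in the 2 libraries.

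A small group of the regions reached levels like those of well-occupied sites. Over 5-fold enrichment in both 1 h libraries was found at 92 regions, which had a median width of 1452 bp. The strongest was chr11:15940805-15943537, where RNAPII reached 17.5-fold and 19.1-fold at 1 h on 197 and 181 fragments, without a peak at 0 h or 6 h. H3K9ac had a peak there in both 1 h lists, at 3.99-fold and 5.13-fold, and in no list of 0 h or 6 h. H3K18ac and H3K27ac peaks were present there in all 6 lists. The nearest region with RNAPII in both 0 h lists lay 225200 bp away.

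The region chr8:53692385-53695968 held 17.8-fold and 15.2-fold RNAPII at 1 h. Its H3K9ac peaks, 8.05-fold and 7.53-fold, were again limited to both 1 h lists. H3K18ac was 2.80-fold and 2.39-fold at 1 h, had no peak at 0 h, and had 1 peak at 6 h, of 1.92-fold in library 2. At chr7:39998746-40003582, with 11.4-fold RNAPII in both libraries, H3K9ac had no peak at 0 h, 11.5-fold and 12.3-fold at 1 h and 1.68-fold and 1.74-fold at 6 h, but the 1 h summits lay 2180 and 2138 bp outside the region. These 3 regions combined a RNAPII peak with an H3K9ac peak that neither 0 h list held.

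Other strong regions carried little or no mark. At chr5:27840652-27844210 RNAPII reached 13.9-fold and 14.5-fold, and no mark had a peak in any of the 24 lists. The neighbouring region chr5:27839579-27839952, with 10.7-fold and 10.3-fold, and chr8:14600057-14608207, with 11.5-fold and 11.1-fold over 8151 bp, also lacked every mark. At chr10:11832574-11836420, with 16.0-fold and 17.3-fold RNAPII, H3K18ac had peaks of 1.99-fold and 2.24-fold at 1 h, then 1.91-fold and 1.92-fold at 6 h, without any at 0 h, and H3K9ac and H3K27ac each had a peak in library 1 of 1 h alone. At chr5:12191424-12192566, with 12.7-fold and 10.8-fold RNAPII, the mark peaks were limited to 1 library each of H3K9ac at 1 h and H3K18ac at 6 h. So RNAPII at the strongest sites was found both with and without the marks measured.

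The widest region, chr6:31587266-31598401, spanned 11136 bp with 6.36-fold and 6.64-fold RNAPII, and 1 of the 24 mark lists had a peak in it. The next, chr12:12272659-12281266, of 8608 bp, carried all 4 marks at all times, and its H3K9ac fold was 2.50 and 2.44 before heat, 7.93 and 7.57 after 1 h and 4.37 and 4.07 after 6 h. The region chr12:43879262-43885847, of 6586 bp and with 8.16-fold and 7.63-fold RNAPII, had no mark peak and lay 484297 bp from RNAPII of 0 h. The RNAPII lists also held peaks on the plastid sequence, whose highest fold was 1.47 and 1.60 in the unheated libraries, 2.19 and 2.08 after 1 h and 1.85 and 2.13 after 6 h, and their part in these results was not tested.

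Most 1 h-only regions lay close to chromatin that RNAPII already occupied before heat. The gap to the nearest region with RNAPII in both 0 h lists had a median of 760 bp, and 3916 regions (55.9%) were within 1 kb. For regions gained and held the median gap was 2104 bp, and 37.1% lay within 1 kb. Regions present only at 6 h were nearer to the 1 h-only ones in this measure, with a median gap of 1058 bp and 48.4% within 1 kb. Gaps over 20 kb were found for 398 of the 1 h-only regions (5.68%), 17.6% of those gained and held and 7.87% of those present only at 6 h. At the 3241 regions of all times within 1 kb of a 1 h-only region, RNAPII itself extended at 1 h. It covered a median of 921 and 886 bp of them before heat, 1673 and 1653 bp after 1 h and 871 and 847 bp after 6 h. The other regions of all times extended too, from 1036 and 995 bp to 1412 and 1395 bp and back to 982 and 940 bp. At the regions of all times within 1 kb of a 1 h-only region, the summit level was taken in fragments over the background of the library. It was 8.61 and 8.77 before heat, 12.8 and 13.1 after 1 h and 9.51 and 9.44 after 6 h. That is a median log2 change of 0.51 at 1 h and 0.11 at 6 h, beside 0.28 and 0.093 for the 29672 other regions of all times. These differences were not tested, since the 1 h RNAPII peaks chose the regions.

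Around the 1 h-only regions, with the nearest 0 h RNAPII peak turned to the left, the flanks also filled at 1 h. At 1000 bp on the side of that peak, RNAPII covered 25.6% of the flanks at 0 h, 49.1% at 1 h and 22.4% at 6 h. On the other side it covered 5.61%, 23.1% and 5.28% at the same distance. The difference between the sides at 0 h follows from how the regions were turned. RNAPII peaks chose the regions, so these values describe the flanks and test nothing. The RNAPII lists as a whole grew too. Peaks of library 1 spanned 71.1 Mb before heat, 89.6 Mb after 1 h and 65.8 Mb after 6 h. For library 2 the spans were 68.4, 88.8 and 63.1 Mb. Whether the flanks filled beyond this was not tested. H3K4me3 was lowest at the middle of the regions, at 10.3%, and covered 21.7% of the positions 2000 bp towards the 0 h peak and 13.1% of those 2000 bp away from it. H3K18ac was the only mark that at 0 h covered more of the middles, 63.6%, than of the positions 1000 bp to either side, 60.7% and 53.0%. To see how the neighbouring 0 h RNAPII interval was oriented, the position of H3K4me3 in it was compared. Intervals without H3K4me3, or with equal H3K4me3 coverage on both sides, were left out. That left 617 to 659 regions where the interval was at least 1 kb wide and lay within 2 kb. H3K4me3 covered more of the side turned away from the 1 h-only region in 58.0% to 60.8% of them, over 6 H3K4me3 lists. The share was 61.3% to 65.1% beside regions gained and held and 47.5% to 54.1% beside regions present only at 6 h.

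**Figure D2:**
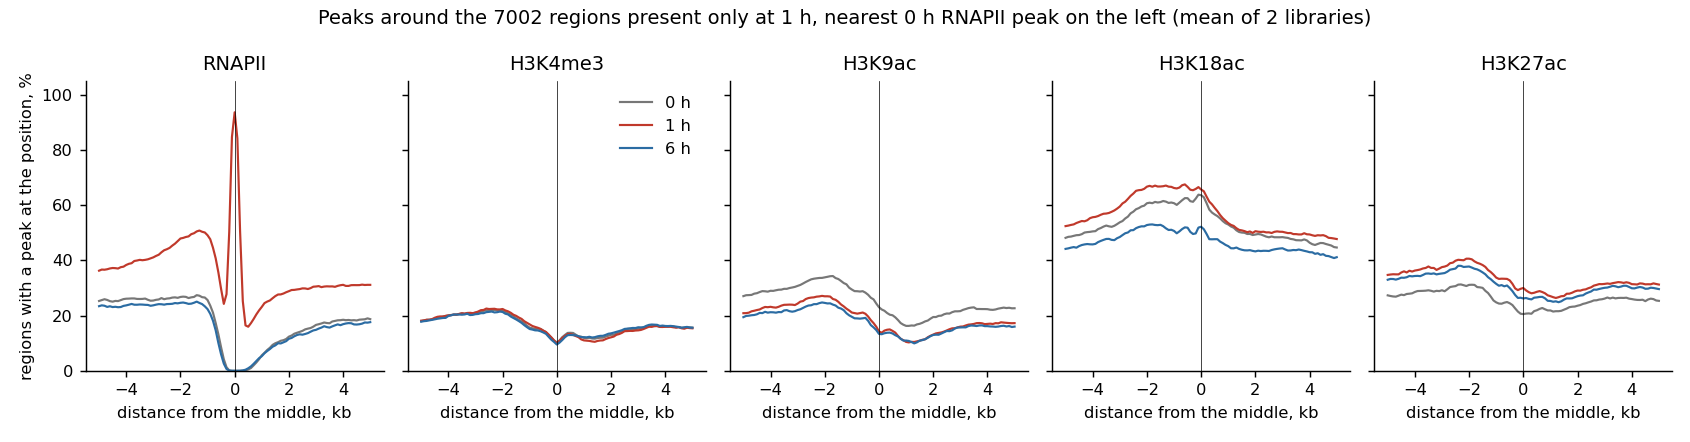
Percent of the 7002 regions with a peak at each position from 5 kb before to 5 kb after their middle, mean of 2 libraries, for RNAPII and 4 marks at 0 h (grey), 1 h (red) and 6 h (blue), with the nearest 0 h RNAPII peak on the left. RNAPII at 1 h is also more frequent in the flanks, H3K9ac is lower at 1 h and 6 h than at 0 h, and H3K4me3 does not separate the times.

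The regions were spread over all chromosomes. Between 8.27% and 9.50% of the RNAPII regions of a chromosome were 1 h-only, with 6.07 per Mb on chromosome 12 and 12.4 per Mb on chromosome 6. A share of 26.2% lay within 3 Mb of a chromosome end, beside 26.6% of all RNAPII regions. Only 439 (6.27%) fell in the 403 of 807 bins of 1 Mb with the least H3K4me3 at 0 h, beside 8.05% of all RNAPII regions, 17.9% of those gained and held and 23.7% of those present only at 6 h.

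With gaps of up to 5 kb allowed, 2792 regions (39.9%) belonged to a run of 2 or more, and the longest runs held 9. The run on chromosome 2, from 25623944 to 25639113, had RNAPII folds of 1.85 to 3.52, and 8 of its regions had no mark peak in any list. The exception, chr2:25637576-25639113, lay 129 bp from a 0 h RNAPII region and carried H3K9ac at 2.72-fold and 2.92-fold before heat, 21.2-fold and 22.1-fold after 1 h and 11.9-fold and 10.4-fold after 6 h. The heated H3K9ac summits were 263 to 293 bp outside it. The run on chromosome 6, from 43358648 to 43381672, had folds of 1.64 to 3.96, and again 8 of 9 regions had no mark peak. Its marked region, chr6:43358648-43362509, had H3K9ac in both 1 h lists, at 23.6-fold and 22.6-fold with summits 669 bp outside, and in no list of 0 h or 6 h. In both runs the only marked region stood at an end of the run.

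Turning to the histone marks, which the choice of regions did not use, H3K18ac was the mark that most of the regions carried. Before heat it overlapped 76.3% and 75.8% of them in the 2 libraries, whereas H3K9ac overlapped 42.5% and 37.4%, H3K27ac 41.9% and 39.5% and H3K4me3 19.6% and 22.0%. Of all RNAPII regions H3K18ac overlapped 78.5% and 78.2%, so its share at the 1 h-only regions was close to this background. The other marks overlapped more of all RNAPII regions, with 59.1% and 55.6% for H3K9ac, 59.4% and 57.5% for H3K27ac and 36.5% and 38.7% for H3K4me3. Taking a mark as present when both lists of a time had a peak, H3K18ac was the only mark at 1828 regions (26.1%) at 0 h. This state was found at 12.5% of regions gained and held, 4.44% of regions of all times and 12.9% of all RNAPII regions. Among regions of 200 to 400 bp it was found at 28.6% of the 2171 1 h-only regions and 21.0% of all. At that width it was found at 25.5% of the 145 regions of all times, close to the 1 h-only share, and at 9.26% of the 54 gained and held. This state depended on how far mark peaks reached. With a summit inside the region it was found at 8.33% of the 1 h-only regions and 5.19% of all. At 0 h 1558 regions (22.3%) carried none of the 4 marks in both lists, 945 (13.5%) H3K9ac with H3K18ac, 783 (11.2%) H3K18ac with H3K27ac and 662 (9.45%) all 4 marks. Of all RNAPII regions 19.9%, 10.1%, 10.0% and 29.9% were in these states, so all 4 marks together were less frequent at the 1 h-only regions. But all RNAPII regions were wider, with a median of 689 bp. Among regions of 200 to 400 bp each mark by itself was more frequent at the 1 h-only regions at 0 h. H3K4me3 overlapped 17.3% and 19.7% of them there and 15.1% and 17.4% of all. The 4 marks together were not counted at that width. RNAPII at 1 h hardly differed with the mark at 0 h. The median fold was 2.33 and 2.33 at regions with H3K18ac in both 0 h lists and 2.32 and 2.35 at those with it in neither.

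The share of regions with a mark was compared with 3 other sets over the 12 groups of 4 marks and 3 times, with the mean of both libraries as 1 value. The 12 groups rest on the same regions, so they are not 12 experiments. The 3 times of a mark can repeat nearly the same value. For H3K4me3 against regions of all times they were -41.9, -42.3 and -41.6 points. The test treats the groups as separate, so its p-values count such repeats as further evidence and are too small to that extent. The 1 h-only regions carried marks less often than regions of all times, with a mean difference of -38.4 points and lower shares in 12 of 12 groups (exact sign-flip permutation test, two-sided, adjusted p = 0.00146 over the 3 sets). Against regions gained and held the difference was -7.71 points, with lower shares in 9 of 12 groups (adjusted p = 0.0195, same exact test), and the 3 groups with higher shares were those of H3K18ac. Against regions present only at 0 h it was 9.86 points, higher in 11 of 12 groups (adjusted p = 0.00146, same exact test). They differed by how width was treated. Among regions of 200 to 400 bp they were 2.15, -0.62 and 1.87 points (adjusted p = 0.199, 0.897 and 0.622, same exact test), the first of these with only 145 regions of all times. In windows of 300 bp around the middle, which have 1 width in every set, they were -22.5, -2.53 and 6.80 points (adjusted p = 0.00146, 0.349 and 0.0454, same exact test). The median width was 432 bp for regions present only at 0 h. So by this test, with its repeated groups, the differences to regions of all times and to those present only at 0 h passed in equal windows. They did not pass among regions of 200 to 400 bp. The difference to regions gained and held passed the threshold in neither.

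**Figure D3:**
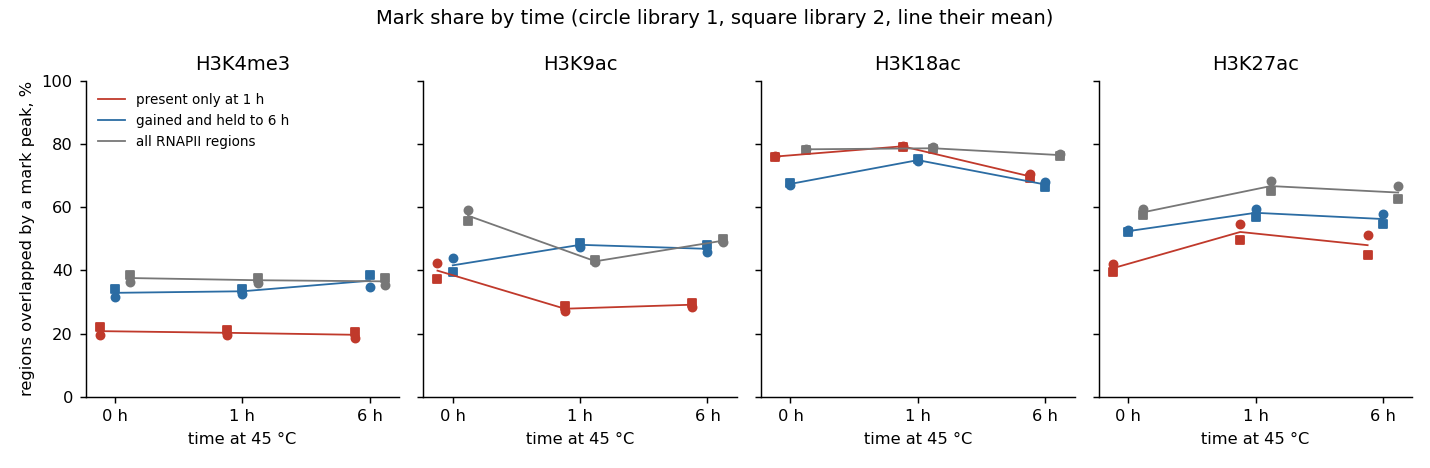
Percent of regions overlapped by a peak of each mark at 0, 1 and 6 h for the regions present only at 1 h (red), those gained and held to 6 h (blue) and all RNAPII regions (grey), with circles for library 1, squares for library 2 and lines through their mean. At the 1 h-only regions H3K9ac is 12.1 points lower and H3K27ac 11.5 points higher at 1 h than at 0 h.

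With heat, the acetylation marks at the 1 h-only regions moved in different directions. H3K9ac overlapped 42.5% and 37.4% of them before heat, 27.1% and 28.7% after 1 h and 28.5% and 29.8% after 6 h, a difference of -12.1 points at 1 h and -10.8 at 6 h. H3K27ac overlapped 41.9% and 39.5% before heat, 54.6% and 49.8% after 1 h and 51.1% and 44.9% after 6 h, which was 11.5 and 7.30 points higher. H3K18ac stood at 76.3% and 75.8%, then at 79.5% and 79.2%, and then at 70.4% and 69.2%, a difference of 3.25 points at 1 h and -6.27 at 6 h. In these 3 marks both heated libraries lay on the same side of both 0 h libraries. H3K4me3 overlapped 19.6% and 22.0%, 19.5% and 21.1%, and 18.6% and 20.7% at the 3 times, and its libraries overlapped. For a single mark, 2 libraries against 2 cannot give an exact p under 0.333.

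The H3K9ac lists held fewer peaks at 1 h. With equal numbers of peaks in all H3K9ac lists, its difference at 1 h was -4.28 points. The values also depend on what counts as marked. When a summit had to lie inside the region, the differences at 1 h and 6 h were -5.76 and -3.76 points for H3K9ac and 7.08 and 3.95 for H3K27ac, and H3K18ac differed by 0.15 points at 1 h. By that measure H3K18ac marked 25.7% and 24.0% of the regions at 0 h and 28.2% and 28.5% at 6 h, a difference of 3.52 points in the opposite direction. At the middle of the regions its peaks covered 63.6% at 0 h, 65.7% at 1 h and 52.2% at 6 h. H3K18ac peaks at 6 h thus reached into fewer of the regions while slightly more of the regions held a summit. All RNAPII regions held more summits too, at 44.9% and 43.9% at 0 h and 46.8% and 47.6% at 6 h. The H3K18ac lists held 107268 and 100889 peaks over 138.1 and 137.5 Mb at 0 h. At 6 h they held 117377 and 120175 peaks over 129.8 and 126.1 Mb.

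All RNAPII regions moved as well. At 1 h H3K9ac was 14.4 points lower there, more than at the 1 h-only regions, H3K27ac was 8.29 points higher, and H3K18ac differed by 0.33 points with overlapping libraries. The change at the 1 h-only regions beyond that at all RNAPII regions was tested over the 4 marks together, with libraries as labelled. At 1 h it averaged 2.17 points in size (exact permutation p = 0.0123, one-sided, the smallest of 81 arrangements), with 3.20 points for H3K27ac, 2.92 for H3K18ac, 2.39 for H3K9ac and 0.16 for H3K4me3. At 6 h it averaged 2.12 points (exact permutation p = 0.0617, one-sided), with -4.43 points for H3K18ac, -2.86 for H3K9ac, 1.07 for H3K27ac and -0.10 for H3K4me3. The test permutes libraries that agree within sampling noise, so its p compares libraries and not plants. With libraries paired by replicate number the p at 1 h was 0.0625 (exact permutation test), which misses the threshold of 0.05, and unpaired it was 0.0617 in windows of 300 bp around the middle (exact permutation test, 1.43 points). Among regions of 200 to 400 bp the change at 1 h averaged 0.91 points (unpaired exact permutation p = 0.0494, one-sided).

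These shifts changed which marks occurred together. With a mark counted as lacking when neither list had a peak, H3K9ac with H3K18ac but without H3K4me3 was found at 1357 regions (19.4%) before heat, 652 (9.31%) after 1 h and 618 (8.83%) after 6 h, beside 19.1%, 7.95% and 11.8% of all RNAPII regions. H3K18ac without H3K9ac was found at 2061 regions (29.4%) at 0 h, 3187 (45.5%) at 1 h and 2402 (34.3%) at 6 h, beside 17.3%, 31.4% and 22.9% of all RNAPII regions. The pair of H3K18ac and H3K27ac as the only marks went from 783 regions to 1507 and 1273, that is 11.2%, 21.5% and 18.2%, beside 10.0%, 20.3% and 16.0% of all RNAPII regions, which is close to this background. Regions without any of the marks in both lists numbered 1558, 1434 and 2111, or 22.3%, 20.5% and 30.1%, beside 19.9%, 20.1% and 22.4% of all. None of the 24 mark lists had a peak at 953 regions (13.6%), beside 14.4% of all RNAPII regions.

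**Figure D4:**
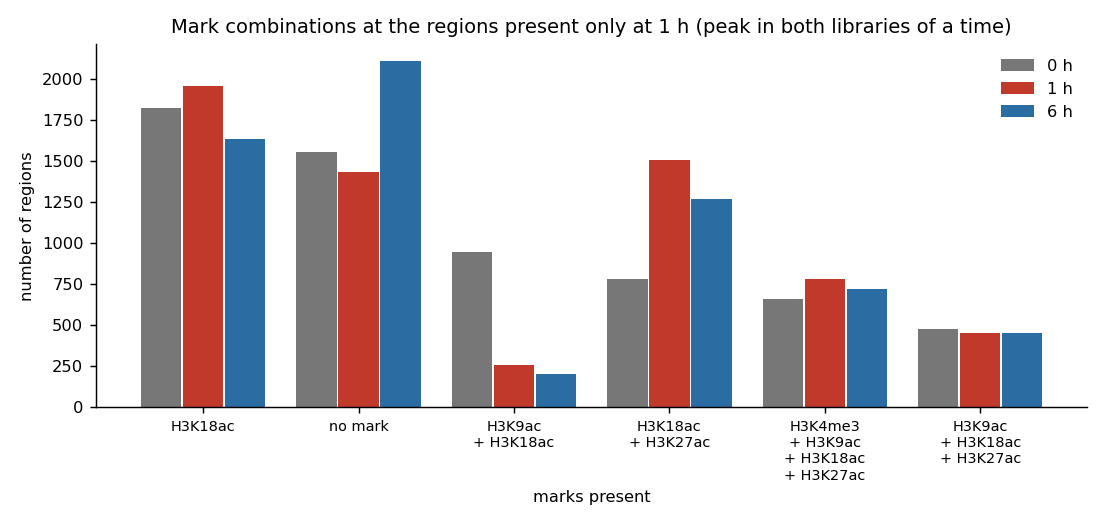
Number of 1 h-only regions with each of the 6 most frequent mark combinations of 0 h, at 0 h (grey), 1 h (red) and 6 h (blue), where a mark is present when both libraries of the time have a peak. H3K9ac with H3K18ac is less frequent at 1 h and 6 h, and H3K18ac with H3K27ac more frequent.

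Few of the regions gained or lost a mark in both libraries. H3K9ac was gained at 1 h, in both 1 h lists and neither 0 h list, at 345 regions (4.93%), where the background over all RNAPII regions was 1.6%. At 228 of them (3.26%) H3K9ac was present only at 1 h like RNAPII itself, with a background of 0.916%. At regions gained and held both were more frequent, with 12.7% gained at 1 h and 4.43% present only at 1 h. Among regions of 200 to 400 bp H3K9ac was gained at 1 h at 2.95% of the 1 h-only regions and 1.69% of all. With the summit inside the region these shares were 2.37% and 1.45%. The share with H3K9ac present only at 1 h was 1.57% and 0.98% among regions of 200 to 400 bp. It was 1.34% and 0.56% with the summit inside. H3K9ac was lost at 1 h at 756 regions (10.8%, background 11.1%) and at 6 h at 506 (7.23%, background 5.28%). With the summit inside the region the loss at 6 h was found at 3.21%, beside 3.37% of all. H3K18ac was gained at 1 h at 250 regions (3.57%, background 1.93%), present only at 1 h at 185 (2.64%, background 1.17%) and lost at 6 h at 313 (4.47%, background 2.05%). Among regions of 200 to 400 bp its gain at 1 h was found at 3.36%, beside 2.76% of all. Loss of H3K18ac at 1 h was found at 97 (1.39%, background 1.62%), and 4342 regions carried it at all 3 times (62.0%, background 69.8%). H3K27ac was gained at 1 h at 416 regions (5.94%, background 4.47%), present only at 1 h at 86 (1.23%, background 0.783%) and lost at 1 h at 40 (0.57%, background 0.363%). Among regions of 200 to 400 bp these H3K27ac shares were closer to those of all. They were 5.30% beside 4.72% gained, 1.11% beside 0.91% present only at 1 h and 0.83% beside 0.70% lost. H3K4me3 was gained at 1 h at 32 regions (0.46%, background 0.367%), lost at 46 (0.66%, background 0.642%), present only at 1 h at 21 (0.30%, background 0.238%) and absent at all times at 5240 (74.8%, background 58.1%). Absence at all times was not compared at equal width, and all RNAPII regions were wider, with a median of 689 bp. The shares of H3K9ac lost at 1 h and of H3K4me3 gained or lost were close to their background.

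The named regions with a gained or lost mark show that the mark peak often centred beside the region. At chr8:57879145-57879751, with RNAPII at 2.16-fold and 2.44-fold, H3K9ac was 31.6-fold and 30.8-fold at 1 h with summits 1178 and 1169 bp outside, and had no peak at 0 h or 6 h. H3K4me3 peaks reached into the same region in all 6 lists. At chr11:57996236-57998326 H3K9ac had no peak at 0 h, 34.2-fold and 32.7-fold at 1 h and 32.2-fold and 24.2-fold at 6 h, all with summits more than 1 kb outside.

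At chr12:67590521-67591068, where RNAPII was 4.62-fold and 4.50-fold, H3K18ac had no peak at 0 h, 13.6-fold and 14.99-fold at 1 h with summits 267 and 356 bp outside, and 2.05-fold and 2.21-fold at 6 h with summits inside. At chr6:47763561-47763866 H3K18ac had no peak at 0 h and was 13.4-fold and 14.5-fold at 1 h, from a peak whose summit lay 5772 and 5748 bp away. At chr8:63334533-63334992, which lay 66 bp from RNAPII of 0 h, H3K4me3 was absent at 0 h, 22.5-fold and 19.5-fold at 1 h and 14.0-fold and 16.4-fold at 6 h, and H3K9ac was 17.9-fold and 19.9-fold at 1 h only. All of these H3K4me3 summits were over 1 kb outside. H3K27ac at chr10:61241848-61242378 had no peak at 0 h, 10.8-fold and 13.9-fold at 1 h and 9.62-fold and 13.2-fold at 6 h, with summits 564 to 631 bp outside. At chr5:5458964-5459207 it had none at 0 h and 9.70-fold and 10.2-fold at 1 h. At chr7:67109853-67110169 H3K4me3 at 1 h, 18.1-fold and 19.8-fold, was the only mark.

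Losses had the same form. H3K9ac at chr1:88121101-88121623 was 23.8-fold and 26.2-fold at 0 h and absent at 1 h, from a peak that centred 8497 and 8489 bp away, and at chr2:54304433-54304673 it was 21.0-fold and 23.7-fold at 0 h and absent at 1 h, with summits 4688 and 4658 bp away. H3K4me3 was lost at chr5:4841176-4841523, from 11.2-fold and 11.3-fold at 0 h, and at chr3:49457708-49458143, from 8.10-fold and 9.80-fold. At the second of these it returned at 6 h with 6.93-fold and 9.75-fold. H3K18ac was missing only at 1 h at chr12:50296171-50296433, with 6.68-fold and 6.96-fold at 0 h and 3.73-fold and 4.34-fold at 6 h, and at chr10:12730296-12730533, with 5.85-fold and 6.10-fold at 0 h and 5.18-fold and 5.79-fold at 6 h. H3K27ac was lost at 1 h at chr7:7145363-7145645, from 3.98-fold and 3.48-fold, and at chr11:35203137-35203470, from 3.67-fold and 3.32-fold.

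The direction of the acetylation changes differed with the distance to RNAPII of 0 h. At the 2902 regions within 500 bp, H3K9ac overlapped 54.0% and 48.1% before heat, 35.5% and 37.0% after 1 h and 33.5% and 36.0% after 6 h. At the 398 regions over 20 kb away it overlapped 14.1% and 13.1% before heat, 21.9% and 21.1% after 1 h and 17.8% and 18.3% after 6 h. H3K9ac was thus 14.9 points lower at 1 h near RNAPII of 0 h and 7.91 points higher far from it. H3K18ac went the other way, from 77.5% and 76.6% to 85.5% and 85.1% at 1 h and 69.6% and 68.4% at 6 h within 500 bp, and from 48.2% and 48.0% to 42.5% and 40.5% and then 49.2% and 49.2% over 20 kb away. H3K27ac was 14.7 points higher at 1 h within 500 bp, and its libraries overlapped over 20 kb away, with 36.2% and 34.7% before heat against 36.2% and 33.9% after 1 h. Among regions of 200 to 400 bp the H3K9ac difference at 1 h was -17.5 points within 500 bp, over 845 regions, and 2.22 points over 20 kb away, over 158 regions. H3K18ac differed by 8.52 and -14.9 points there. At regions gained and held H3K9ac had the same order, with -6.38 points within 500 bp and 27.7 points over 20 kb away, but H3K18ac did not change sign there, with 7.80 and 3.07 points. At regions present only at 6 h neither mark changed sign at 1 h, with -2.05 and -1.08 points for H3K9ac, the latter with overlapping libraries, and -3.37 and -5.38 points for H3K18ac. These bins were formed after the data had been seen, and the differences between them were not tested.

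**Figure D5:**
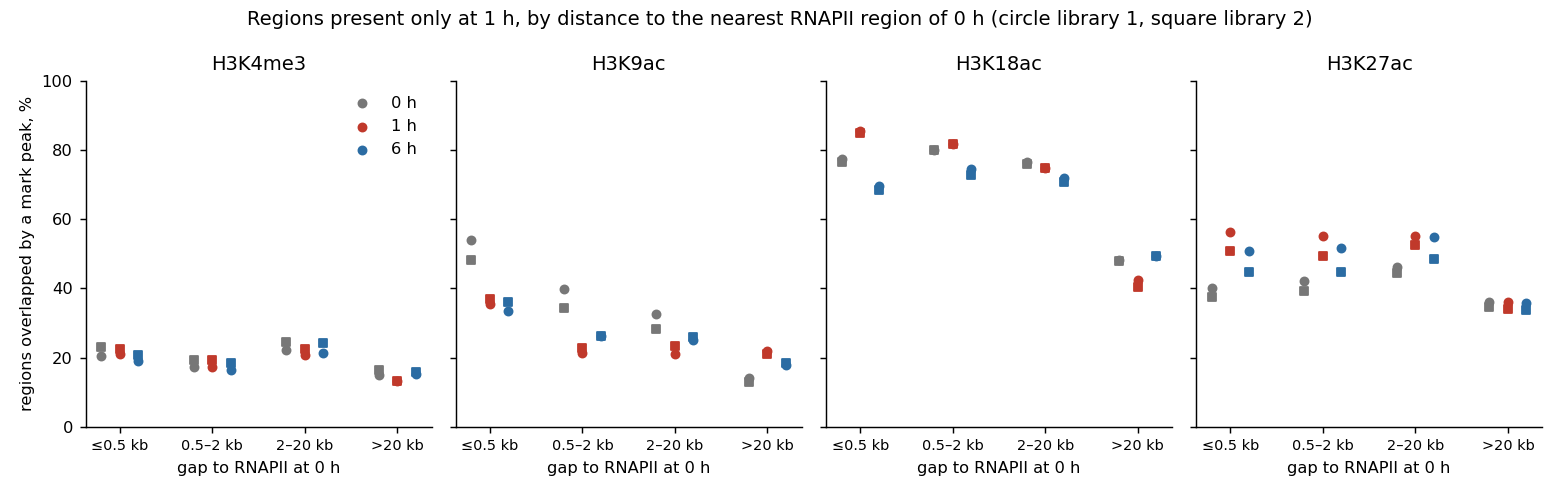
Percent of 1 h-only regions overlapped by a peak of each mark, in 4 bins of the gap to the nearest RNAPII region of 0 h, at 0 h (grey), 1 h (red) and 6 h (blue), with circles for library 1 and squares for library 2. H3K9ac is lower at 1 h than at 0 h in the 3 nearer bins and higher over 20 kb away, and H3K18ac is higher at 1 h within 500 bp and lower over 20 kb away.

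The 92 regions with over 5-fold RNAPII in both 1 h libraries, a group formed after the values had been seen, lay farther from RNAPII of 0 h. Of these, 36 (39.1%) lay over 20 kb from RNAPII of 0 h, against 5.24% of the other 6910 regions, and 33 (35.9%) had no mark peak in any list, against 13.3%. H3K9ac overlapped 22.8% and 17.4% of them before heat, 44.6% and 44.6% after 1 h and 21.7% and 21.7% after 6 h, while at the other regions it overlapped 42.8% and 37.7%, 26.9% and 28.5%, and 28.6% and 29.9%. H3K9ac was gained at 1 h at 21 of the 92, beside 324 of the other 6910 regions, with a background of 1.6% over all RNAPII regions. It was present only at 1 h at 14 of the 92, beside 214 of the others, with a background of 0.916%. At regions gained and held these shares were 12.7% and 4.43%. Their H3K4me3 stood at 20.7% and 23.9%, 20.7% and 22.8%, and 20.7% and 26.1%. The 92 regions were wider, with a median of 1452 bp against 493 bp, and the differences were not tested.

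Where a mark was present in all 6 lists its level was compared as fragments at the summit over the background of the library. H3K27ac, at 2148 regions, had medians of 5.93 and 6.28 before heat, 6.98 and 6.83 after 1 h and 6.82 and 6.92 after 6 h, a median log2 change of 0.26 at 1 h beside 0.45 at all RNAPII regions. H3K18ac, at 4338 regions, had 7.29 and 7.25, then 7.39 and 7.55, and then 6.02 and 6.24, a log2 change of 0.014 at 1 h and -0.25 at 6 h, beside 0.049 and -0.20 at all RNAPII regions. H3K9ac, at 886 regions, had 8.92 and 8.74, 9.51 and 9.40, and 8.74 and 8.94. Its log2 change was 0.21 at 1 h, beside 0.25 at all RNAPII regions and 0.58 at regions gained and held. H3K4me3, at 1102 regions, changed by -0.023 at 1 h and 0.10 at 6 h. Levels and shares need not move together, since the level covers only regions where the mark was called at every time.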

How the data were processed

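The authors trimmed reads with Trimmomatic 0.38, aligned them to the M82 assembly V1.0 with Bowtie2 2.3.5 allowing 1 mismatch, and used SAMtools 1.9 and MACS2 2.2.7.1 to call peaks in each library against 1 input library from 0 h. The input and H3K27me1 samples were not analysed here. The deposited lists hold narrow peaks with a fold enrichment (a ratio), and a p-value and q-value written as −log10 by the authors. The sources name a cutoff of 0.05 on either p or q, and the lists hold peaks up to that p.

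Whole fragments per peak were recovered from the deposited fold ratio and −log10 p-value (tolerance 0.001), for 99.4% to 100% of peaks in each list. Fewer fragments give a less precise fold. Replicate noise used peaks with summits within 30 bp and at least 60 fragments together. A region carried a mark when a peak overlapped it by 1 bp. Comparisons used exact sign-flip and exact permutation tests with Benjamini-Hochberg adjustment in scipy 1.17.1 and numpy 2.4.6, tables were handled in pandas 2.3.3 under Python 3.11.15, plots were drawn in matplotlib 3.10.9, and the tests were checked on simulated data. The regions, sets and rules were chosen with earlier results of these data known. Named regions were the 8 with the highest RNAPII fold (the lower of both libraries), the 4 widest, the 3 shortest, the longest runs, and for each mark the 2 with the highest fold gained and the 2 lost at 1 h. Coordinates count from 1 and are those of the deposited files. No genome or annotation of this assembly was used here, so no gene and no sequence is given. Alternatives changed the q-value and p-value limits, the length, joining and overlap rules, the region width and the libraries used.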

Additional observations from a re-analysis of the deposited data

Results flagged for a closer look

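Over all widths, the H3K9ac share moved in opposite directions at 2 kinds of heat-gained RNAPII regions. The 1 h-only regions were lower in every heated library, and those gained and held were higher. At 1 h minus 0 h the difference was -12.1 points at the 1 h-only regions and 6.50 points at the regions gained and held. At 6 h minus 0 h it was -10.8 and 5.22 points. At all RNAPII regions it was -14.4 points at 1 h and -7.93 at 6 h. So the regions gained and held had the opposite sign to this background, and the 1 h-only regions had the same sign. With equal numbers of peaks in all H3K9ac lists, the 1 h difference at the 1 h-only regions was -4.28 points. H3K18ac at the 1 h-only regions was 3.25 points higher at 1 h and differed by -6.27 points at 6 h. None of these differences was tested.

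Distance to RNAPII of 0 h separated directions within the 1 h-only regions. H3K9ac differed by -14.9 points at 1 h within 500 bp and by 7.91 points over 20 kb away, and at 6 h by -16.3 and 4.52 points. H3K18ac differed by 8.25 and -6.66 points at 1 h, and by -8.01 and 1.13 points at 6 h. These differences between near and far regions were not tested either. Within 500 bp, H3K9ac at 1 h was lower in both kinds of region, with -6.38 points at those gained and held, so the contrast between the kinds did not have the opposite sign there. It did between 2 and 20 kb, with -8.29 points at the 1 h-only regions and 14.7 points at those gained and held, and over 20 kb away both kinds were higher, by 7.91 and 27.7 points.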

How the results depend on the processing

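The number of 1 h-only regions was 4525 when no 0 h or 6 h RNAPII peak was allowed within 500 bp, and 17119 to 18348 with 1 library per time, where no agreement of libraries is asked. The other 6 alternatives gave 4723 to 7165. The difference to regions of all times was 2.15 points among regions of 200 to 400 bp, opposite in sign. The difference to regions gained and held lost its call with -0.895 points for regions at least 50% covered by the mark, -2.53 in 300 bp windows and -0.618 among regions of 200 to 400 bp, and that to regions present only at 0 h with 1.67 points at 50% covered and 1.87 at 200 to 400 bp. The change beyond all RNAPII regions at 1 h lost its call in 300 bp windows (1.43 points, exact permutation p = 0.0617). At 6 h it passed with at least 50% covered (3.00 points), 200 to 400 bp (2.15), equal peak numbers (1.96) and RNAPII peaks of q at most 0.05 (2.203). The share within 1 kb of RNAPII of 0 h was 54.7% with q at most 0.05 and 63.5% to 64.3% with 1 library per time. It was 41.4% within 500 bp and 84.6% within 5 kb. H3K18ac at 6 h minus 0 h was 3.52 points with the summit inside the region, an alternative chosen after seeing the data, as was the use of 200 to 400 bp for mark calls. Of 72 alternatives to the mark changes at the regions, this was the only one opposite in sign, and 11 others moved by more than 1 SD between libraries. The causes were not tested, beside fewer regions at 200 to 400 bp and fewer lists with 1 library.

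Pairing by replicate number gave 2.17 points and exact permutation p = 0.0625 for the change at 1 h, which lost its call, and changed no other call. Deviations of libraries with the same number correlated by 0.22 to 0.31 for H3K4me3, which is a hint of pairing for that mark, and by 0.0086 to 0.13 for the acetylation marks. The labels give no shared batch for a number. Depth limits the weak regions most, at about 25 fragments each.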
